A study of Homo sapiens with 16 samples.

Results

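The comparison set 4 libraries of Ishikawa cells, collected after 4 h or 8 h of estrogen and taken as 1 late group, against 2 libraries of the same cells that received vehicle only (0 h). These are 6 of the 16 RNA-seq libraries of a time course in which 2 cell lines were sampled at 0, 2, 4 and 8 h, chosen by cell line and time label. The 4 h and 8 h libraries were pooled because they had been seen not to separate by label. Ishikawa cells are a human endometrial adenocarcinoma line, grown in medium without hormones before treatment. Late libraries received 10 nM 17β-estradiol (E2), the main natural estrogen, and 0-h libraries received the vehicle. The labels give neither group a genetic alteration. The labels call the libraries replicates and do not say that they came from separate cultures, so the p-values measure the spread between these libraries. The 2 Ishikawa libraries of 2 h stayed in the fit to share the estimate of the spread. The breast carcinoma line T-47D, treated in the same way, entered one test of difference. It was also fitted alone for its own late change against 0 h.

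Estrogen receptor alpha, the product of ESR1, is a nuclear hormone receptor. When E2 binds, the receptor attaches to DNA at estrogen response elements or through other factors and recruits coactivators or corepressors. In the lining of the uterus, estrogen drives growth of the epithelium in the first part of the menstrual cycle and raises the progesterone receptor, through which progesterone later ends that growth.

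Libraries held between 41177912 and 58918642 counts over the 8 Ishikawa samples. Levels below are CPM, counts relative to the size of each library after TMM normalization, and late values are given in the order first 4 h, second 4 h, first 8 h and second 8 h library. The values that follow describe the 4 late libraries and are no test of the pooling, which rests on the same data. On the second principal component, which held 15.6% of the variance, the first 4 h library (19.9) and the second 8 h library (10.7) lay apart from the second 4 h library (-10.4) and the first 8 h library (-6.95). Among the genes called in the late comparison, 48.3% had the first 4 h and second 8 h library on one side of the other pair, 32.6% had both 4 h libraries on one side of both 8 h libraries, and 19.1% split by replicate number. Over all tested genes these shares were 43.6%, 33.1% and 23.3%, so called genes were split much like the rest. Libraries kept the labels they were deposited with, pooling used no order among the 4 of them, and whether 2 of them were exchanged before deposit was not tested.

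**Figure D1:**
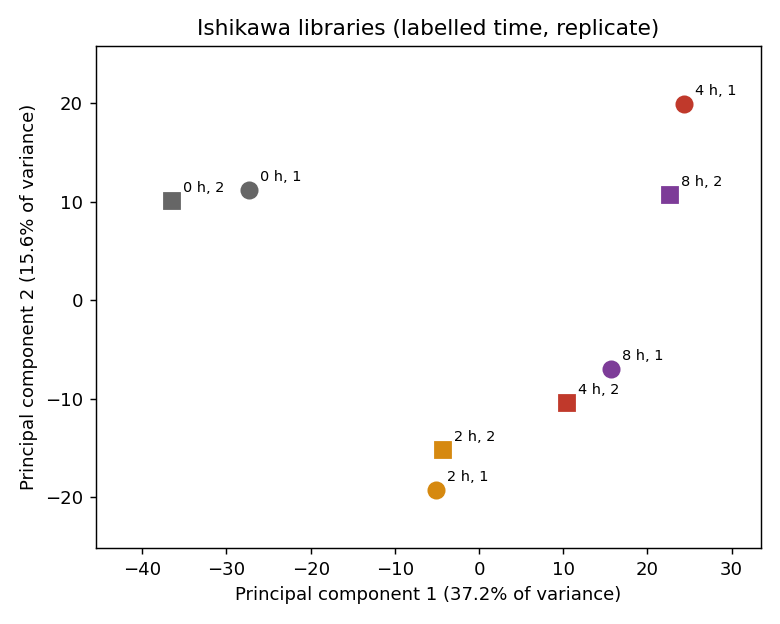
Principal components 1 (37.2% of variance) and 2 (15.6%) of log2 CPM in the 8 Ishikawa libraries, coloured by labelled time, with circles for replicate 1 and squares for replicate 2. The 0-h libraries lie to the left and the 4 late libraries to the right, with the first 4 h and second 8 h libraries above the other late pair.

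Of 15787 genes tested, 4055 (25.7%) differed between late and 0-h libraries at an adjusted p under 0.05. Levels were higher for 2132 genes (13.5%) and lower for 1923 (12.2%). Most shifts were small, with a median log2 fold change of 0.28 among higher genes and -0.41 among lower genes, against -0.00157 over all genes. On the log2 scale, 192 higher and 155 lower genes moved by more than 1, and 62 higher and 9 lower genes by more than 2, so the large changes were mostly increases. Among called genes, 3914 had all 4 late libraries beyond both 0-h libraries, a separation that 42.9% of all tested genes showed. Of the controls, the second 0-h library carried the most weight in these counts. Without it, 1636 genes were called, 879 higher and 757 lower, and with the first left out instead 4305 were called, 2402 higher and 1903 lower.

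Higher genes taken as a whole were the more abundant ones. Their median level was 56.3 CPM, against 22.8 CPM for lower genes and 22.3 CPM for all tested genes. Large changes were in scarcer genes, with a median of 2.49 CPM for genes higher by more than 1 and 0.87 CPM for genes lower by more than 1. With genes divided by level into 5 classes of equal size, 23.9% of the top class were higher and 10.6% lower, while in the second lowest class 7.03% were higher and 16.5% lower. Long noncoding RNAs made up 5.32% of tested genes with an annotation, 1.18% of higher genes and 4.17% of lower genes. Among genes that changed by more than 1, they made up 4.30% of higher and 10.9% of lower genes. Base composition moved with direction among the small changes. The median GC content of the transcribed sequence was 42.0% in higher genes with a change of at most 0.5 and 55.8% in lower genes of that size, whereas it was 55.8% in higher genes and 55.0% in lower genes that changed by more than 1. With an offset for GC content in each library, an alternative added after seeing the data, 4067 genes were called, of which 3295 had been called without it, and the part of GC content in single small changes was not tested.

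**Figure D2:**
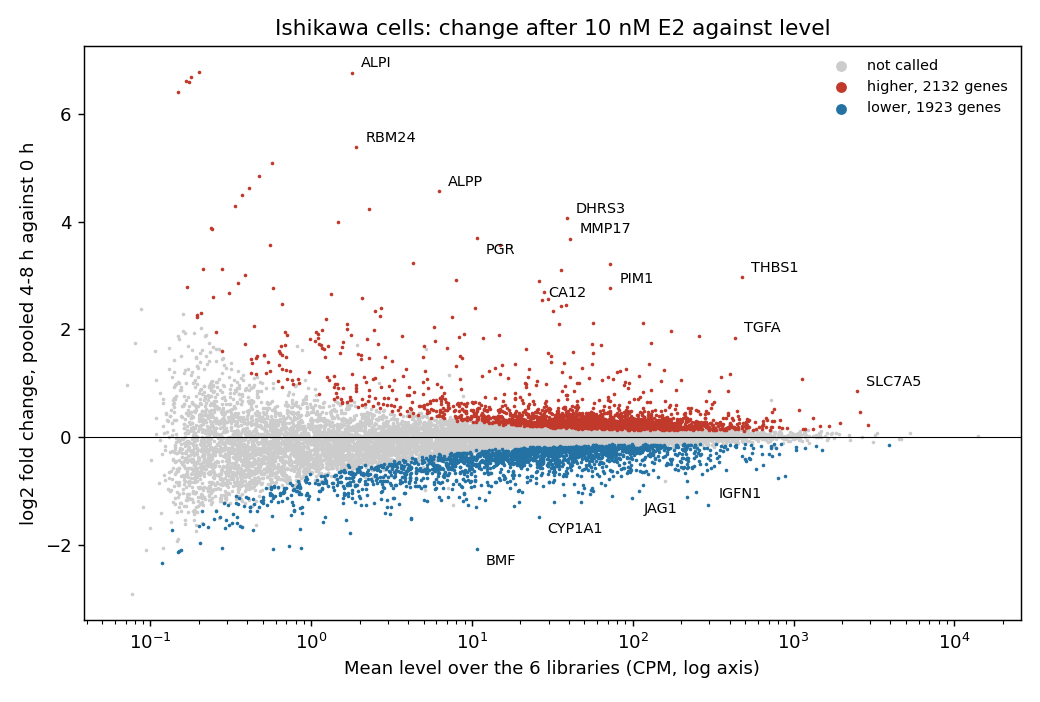
Each point is a tested gene, with its mean level over the 6 libraries in CPM on a log axis and its log2 fold change of pooled 4-8 h against 0 h. The 2132 higher genes (red) reach further from 0 than the 1923 lower genes (blue), and the small called changes lie at higher levels.

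Known estrogen targets rose as a group, led by the progesterone receptor. Of 27 tested members of a list of classical estrogen targets of breast and uterine cells, 19 were higher and 1 was lower. Over all tested genes 13.5% were higher and 12.2% lower. The list had a median log2 fold change of 0.74, beside -0.00157 over all genes. PGR, the progesterone receptor itself, stood at 1.37 and 0.987 CPM with vehicle and at 15.1, 14.8, 13.5 and 18.4 CPM in the late libraries. Even the lowest late library (13.5 CPM) lay far above the higher control (1.37 CPM). Non-overlap was a condition of the ranking by fold change, in which PGR stood, and 42.9% of all tested genes showed it. The fitted rise of PGR was 13.1-fold (log2 fold change 3.71, standard error 0.17, adjusted p = 2.35e-10 from edgeR). The gene lies on chromosome 11 from 100900355 to 101000544 (hg19, minus strand) and overlaps PGR-AS1 on the other strand. Whether the authors counted by strand is not given in the sources used here, so reads of such pairs cannot be told apart. Of the 119 genes described by name, 69 overlap an annotated gene on the other strand, besides PGR these being ADCY9, ADRA1B, ALPP, AMIGO2, ANO1, BBC3, BMF, CCND1, CCND2, CCNG2, CHRM1, CHST6, COL1A1, ELF3, ESPN, ESR1, FOXA1, G0S2, GNL3, GPR17, GREB1, HEY2, HSPA8, HSPD1, IGF1R, IGFBP5, IGFN1, IQSEC3, IRS2, JAG1, JUNB, KAZN, KCNJ5, KRT18, LMO3, MPPED2, MUC5B, MYC, NOTCH1, NR3C2, NRARP, NRIP1, PAX8, PDGFB, PEG10, PES1, POLR1B, PRLR, RARA, RASGRP1, RBM24, RGL2, ROBO2, RXRB, SIAH2, SLC16A3, SLC47A1, SLC6A12, SLC7A5, TGFB2, THBS1, THY1, TOB1, USHBP1, UTP20, WDR43, WISP2 and ZBED2.

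CA12, a carbonic anhydrase of the cell surface, went from 4.95 and 4.85 CPM at 0 h to 30.0, 41.3, 38.5 and 36.8 CPM (log2 fold change 2.90, standard error 0.12). The groups did not overlap. GREB1, an estrogen-induced cofactor of the receptor, rose by 1.63 on the log2 scale and NRIP1, a corepressor of nuclear receptors, by 1.08. IGFBP4, which binds insulin-like growth factors, was low at 0.391 and 0.859 CPM and rose by 1.89, and WISP2, a secreted CCN family protein, had 5 counts in all at 0 h against 51 late. That is a ratio of 5.01 after scaling, with an exact 95% interval of 2.01 to 16.1 that covers counting error only, and its call was lost without either 0-h library (adjusted p = 0.101 and 0.113). Between 71.9% and 73.9% of counts from 1 to 10 were even, and if both reads of a pair were counted, this interval and those given for other low genes are too narrow. The imprinted, retrotransposon-derived PEG10 was the most abundant member that rose by more than 1, from 661 and 641 to 1624, 1093, 1113 and 1645 CPM. The ubiquitin ligase SIAH2 rose by 0.74 and the retinoic acid receptor RARA by 0.55. Smaller rises were those of CCND1, the G1 cyclin D1, by 0.35 and of XBP1, a transcription factor of the secretory pathway, by 0.25. The lower member was the adenylate cyclase ADCY9 (-0.21, adjusted p = 0.00880), and without the second 0-h library the list had 16 higher and 0 lower members. TFF1 and TFF3, trefoil peptides that mark the estrogen response of breast cells, had no count in any of the 8 Ishikawa libraries, where 3 counts would be at most 0.0729 CPM before scaling. That limit covers counting error only.

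The window from 250 bases before to 50 bases after the RefSeq start of PGR is shown because the gene had the largest fold change of the list. It is 300 bases on chr11:100999759-101000058 (minus strand) of GRCh37, where the RefSeq sequence matched once. Capitals mark TGACC, the core letters of the estrogen response element, 166 bases before the RefSeq start. That start lies inside the annotated gene, whose 5′ end is at 101000544. The marked letters therefore lie within the annotated gene and not before it.
PGR: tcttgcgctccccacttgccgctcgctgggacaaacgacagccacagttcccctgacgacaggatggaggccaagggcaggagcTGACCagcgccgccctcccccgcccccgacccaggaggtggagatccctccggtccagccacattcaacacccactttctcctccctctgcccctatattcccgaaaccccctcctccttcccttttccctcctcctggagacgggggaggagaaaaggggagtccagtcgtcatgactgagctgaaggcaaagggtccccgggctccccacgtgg
No full element, the core GGTCA followed after 3 bases by its inverted copy, was in this window, and only 2 of the 12232 tested genes with a RefSeq promoter held one, 1 of them called higher (ZNF669, log2 fold change 0.31, not called without the second 0-h library at an adjusted p of 0.161) and 1 not called (USHBP1). The core alone, GGTCA or TGACC, was in 34.4% of all these promoters, 33.7% of those of higher genes, 34.5% of those of lower genes and 9 of 18 of those of the listed targets. Both strands were searched for every motif given here. The AP-1 site TGANTCA was in 4.63% of all, 4.27% of those of higher genes and 5.43% of those of lower genes. In the small sets that changed by more than 1 the order was the other way. There it was in 11 of 131 promoters of higher genes (8.40%) and 3 of 101 of lower genes (2.97%). These letter matches are not binding sites, and distant elements were not searched.

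The 3 tissue-restricted alkaline phosphatases rose together, and the widely expressed one did not pass the test. These enzymes remove phosphate groups at the cell surface, and their induction by estrogen is a long-used assay in this line. ALPPL2, the germ cell enzyme, stood at 1.87 and 1.76 CPM with vehicle and 28.2, 15.4, 14.6 and 28.3 CPM late (log2 fold change 3.57, standard error 0.29, adjusted p = 3.08e-07). ALPP, the placental enzyme, stood at 0.5 and 0.258 CPM and 12.1, 7.24, 5.87 and 11.3 CPM (4.58, standard error 0.36). For both genes, the first 4 h and the second 8 h library were the highest. ALPI, the intestinal enzyme, had 2 counts in all at 0 h and 484 late, a ratio of 119 with an exact 95% counting interval of 32.7 to 984. ALPL, the liver, bone and kidney enzyme, stood at 3.69 and 3.35 CPM and 3.50, 3.92, 3.58 and 3.63 CPM (log2 fold change 0.05, adjusted p = 0.811). The first 3 are paralogs that lie close to each other on chromosome 2, and how reads that match more than 1 of them were divided is uncertain.

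Other genes with the largest rises came from several functions. DHRS3, a reductase that turns retinal back to retinol, on chromosome 1 from 12627939 to 12678216, had 3.19 and 3.52 CPM with vehicle and 59.7, 53.5, 53.7 and 58.7 CPM late. Its rise was 16.8-fold (log2 fold change 4.07, standard error 0.09, adjusted p = 4.09e-14), and the late libraries lay close together. RBM24, an RNA-binding protein that regulates splicing, on chromosome 6 from 17281592 to 17294102, had 6 counts in all at 0 h and 520 late, a ratio of 42.5 with an exact 95% counting interval of 19.4 to 116. MMP17, a membrane-anchored metalloproteinase, went from 5.08 and 4.06 CPM to 70.9, 48.4, 46.4 and 70.4 CPM (log2 fold change 3.69, standard error 0.19), again with the first 4 h and second 8 h library above the other pair. IQSEC3, an exchange factor for ARF GTPases, rose by 4.24 on the log2 scale and NPPC, the precursor of C-type natriuretic peptide, by 3.24, both from below 1 CPM. C3orf36, an uncharacterised gene, rose by 4.00 from 0.152 and 0.107 CPM. It lies 2889 bases past the 3′ end of SLCO2A1, a prostaglandin transporter on the same strand that rose by 2.12 from 15.9 and 19.2 to 89.4, 64.0, 58.8 and 93.2 CPM.

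Among genes with a mean of at least 50 CPM, the largest rises were those of G0S2, THBS1, PIM1, CKB, SLCO2A1, HES2, KAZN and TGFA. THBS1, the matrix protein thrombospondin 1, went from 85.7 and 86.3 CPM at 0 h to 657, 663, 658 and 715 CPM, a rise of 7.83-fold with an adjusted p of 3.08e-15. PIM1, a kinase that promotes survival, went from 15.1 and 14.6 to 106, 98.9, 94.2 and 106 CPM, and TGFA, a ligand of the EGF receptor, from 158 and 159 to 552, 565, 605 and 559 CPM. In each of these genes the spread among late libraries was small beside the distance to 0 h. G0S2, an inhibitor of fat breakdown, stood at 10.5 and 11.7 and 126, 86.6, 86.2 and 114 CPM. CKB, the brain-type creatine kinase and a classical estrogen-induced uterine protein, stood at 35.8 and 35.3 and 194, 119, 120.0 and 189 CPM, with a clear gap between the late pairs. HES2, a basic helix-loop-helix repressor, rose by 1.98 on the log2 scale, and KAZN, which encodes the junction-associated protein kazrin, by 1.88.

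**Figure D3:**
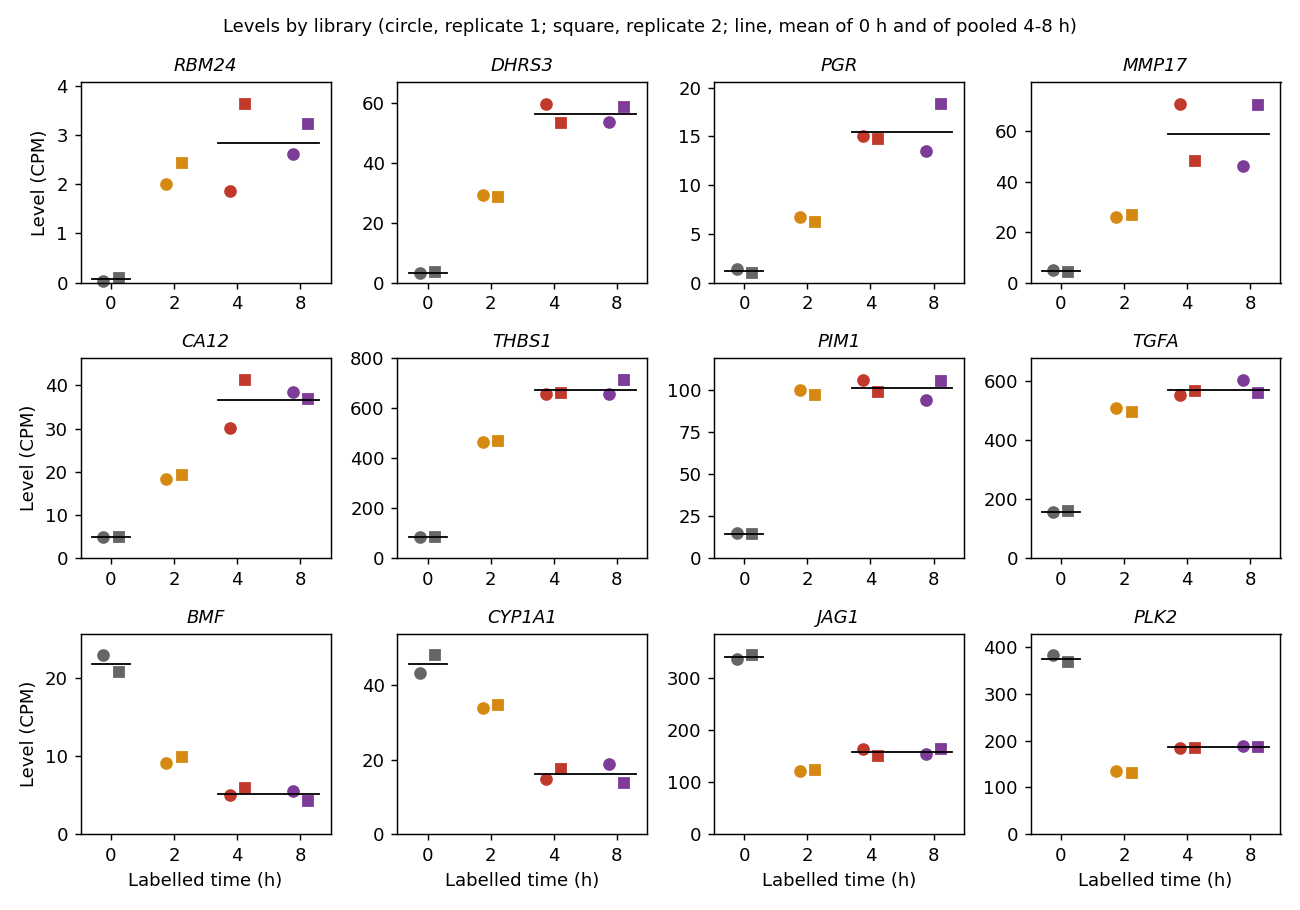
Level in CPM of 12 genes in each of the 8 Ishikawa libraries by labelled time, with circles for replicate 1, squares for replicate 2 and lines at the mean of 0 h and of the pooled late libraries. In all 12 panels the late libraries lie outside the range at 0 h, which was a condition for naming these genes except CA12. For MMP17 the first 4 h and second 8 h libraries (70.9 and 70.4 CPM) lie above the other late pair.

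Decreases were shallower. The lowest fold change among genes with a mean of at least 50 counts was that of BMF, a pro-apoptotic BH3-only protein, on chromosome 15 from 40380091 to 40401093. It stood at 22.9 and 20.8 CPM with vehicle and 5.03, 5.86, 5.50 and 4.25 CPM late (log2 fold change -2.08, standard error 0.11, adjusted p = 1.22e-09). The highest late library (5.86 CPM) lay well under the lower control (20.8 CPM), and non-overlap was a condition of this ranking. CYP1A1, a cytochrome P450 that oxidises aromatic compounds and estrogens, fell from 43.2 and 47.9 to 14.7, 17.5, 18.9 and 13.8 CPM (-1.48, standard error 0.10). Of genes below 4 CPM at 0 h, 3 receptor genes were among the lowest fold changes, with -1.59 for the orphan receptor GPR17, -1.54 for the adrenergic receptor ADRA1B and -1.48 for the muscarinic receptor CHRM1. ZBED2, a zinc finger transcription factor, changed by -1.53, LMO3, a LIM-only cofactor, by -1.43, and the uncharacterised LOC100129940 by -1.41. RGL2, an exchange factor for RAL GTPases in the major histocompatibility complex, changed by -1.51, but its 0-h libraries stood apart at 5.34 and 9.45 CPM.

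Abundant genes that fell included signalling and adhesion genes. JAG1, a Notch ligand, stood at 336 and 343 CPM with vehicle and 164, 150.0, 154 and 163 CPM late, a log2 fold change of -1.11 with an adjusted p of 1.07e-10. PLK2, a stress-responsive polo-like kinase, stood at 382 and 368 and 184, 184, 189 and 186 CPM, where the 4 late values were nearly equal. PDGFB, a platelet-derived growth factor chain, changed by -1.10, CHST6, a sulfotransferase that acts on keratan sulfate, by -1.14, and PRIMA1, the membrane anchor of acetylcholinesterase, by -1.06. The adhesion receptor ADGRF1 fell from 87.8 and 83.4 to 38.8, 45.6, 47.4 and 38.6 CPM, and the adhesion protein AMIGO2 from 160.4 and 168 to 90.7, 73.5, 72.7 and 91.6 CPM. IGFN1, an immunoglobulin-fold protein, varied more, from 386 and 576 CPM at 0 h to 159.9, 266, 172 and 203 CPM late. Genes of this ranking were named only if late and 0-h libraries did not overlap.

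Lists of growth genes moved by small amounts and mostly one way. Of 38 tested ribosome biogenesis factors and RNA polymerase I subunits, which build ribosomes in the nucleolus, 31 were higher and none was lower, with a median log2 fold change of 0.29. DDX21, a nucleolar helicase, went from 367 and 337 to 489.9, 466, 492 and 515 CPM, the largest change of the list at 0.48 (adjusted p = 5.64e-06). Other members were DKC1, the pseudouridine synthase dyskerin, at 0.45, POLR1B, the second largest subunit of polymerase I, at 0.44, and GNL3, nucleostemin, at 0.42. Abundant nucleolar proteins that did not pass were NPM1 (0.13, adjusted p = 0.0678) and FBL (0.07, adjusted p = 0.388). Chaperones, which fold proteins, gave 22 higher and 0 lower of 25, with a median of 0.26. HSPA8, the constitutive cytosolic HSP70, went from 2129.7 and 2028 to 3113, 2693, 2724 and 2932 CPM, the mitochondrial chaperonin HSPD1 changed by 0.31, and BAG3, a cochaperone of HSP70, by 1.25. With the GC offset, 33 ribosome biogenesis genes and 21 chaperones were higher and none was lower, and without the second 0-h library 26 and 14 were higher. These counts stand beside 13.5% of all tested genes, and beside 23.9% of the genes in the top class by level.

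An E-box, CACGTG, the letters that MYC and MAX bind, was in the promoter window of 9 of the 31 ribosome biogenesis genes with a RefSeq promoter (29.0%), against 9.90% of all 12232 promoters and 13.2% of those of higher genes. Of these 9 genes, 7 were higher, beside 31 of the 38 tested genes of the whole list. In the list of estrogen targets, 4 of 18 promoters (22.2%) held an E-box. The GC box GGGCGG was in 71.0% of the ribosome biogenesis promoters and 68.3% of all promoters. The windows of 3 of the higher genes are shown for the place of the E-box, which stands in capitals close to the start. PES1, a factor of the large ribosomal subunit (log2 fold change 0.27), is on chr22:30987848-30988147 (minus strand), WDR43 (0.38) on chr2:29117283-29117582 (plus strand) and UTP20 (0.41) on chr12:101673633-101673932 (plus strand), the latter pair being factors of the small subunit, all in GRCh37.
PES1: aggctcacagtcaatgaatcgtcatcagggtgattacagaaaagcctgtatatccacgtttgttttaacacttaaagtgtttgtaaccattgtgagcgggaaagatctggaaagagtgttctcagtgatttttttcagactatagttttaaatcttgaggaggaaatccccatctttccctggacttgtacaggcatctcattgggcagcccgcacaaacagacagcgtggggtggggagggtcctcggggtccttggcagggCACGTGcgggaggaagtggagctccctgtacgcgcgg
WDR43: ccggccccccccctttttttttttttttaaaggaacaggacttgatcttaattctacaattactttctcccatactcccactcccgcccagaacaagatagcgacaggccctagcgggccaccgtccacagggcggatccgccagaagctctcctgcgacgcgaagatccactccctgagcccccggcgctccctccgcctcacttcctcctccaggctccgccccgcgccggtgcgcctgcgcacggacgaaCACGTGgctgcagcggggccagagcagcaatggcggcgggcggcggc
UTP20: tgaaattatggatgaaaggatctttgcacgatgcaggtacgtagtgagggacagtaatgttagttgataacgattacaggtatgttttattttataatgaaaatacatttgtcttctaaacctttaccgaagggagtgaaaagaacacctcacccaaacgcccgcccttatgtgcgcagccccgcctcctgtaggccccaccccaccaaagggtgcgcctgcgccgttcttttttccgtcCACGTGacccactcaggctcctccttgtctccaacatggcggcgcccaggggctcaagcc
The RefSeq start used for PES1 lies inside the annotated gene, whose 5′ end is at 31003070. The E-box begins 13 bases after that start in PES1, 3 bases after the start in WDR43 and 10 bases before it in UTP20. MYC, whose product binds these letters, went from 116 and 119.6 to 172, 162, 154 and 170.4 CPM (log2 fold change 0.48, standard error 0.05), and its part in the changes of the list was not tested.

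Lists of supply genes are to be read beside 13.5% higher and 12.2% lower over all tested genes. Cytoplasmic tRNA synthetases, which load amino acids onto tRNA, were higher for 10 and lower for 0 of 20, but for 2 without the second 0-h library. Genes of amino acid synthesis and transport under the factor ATF4 were higher for 11 and lower for 1 of 21. SLC7A5, the large neutral amino acid transporter LAT1, was the most abundant of them, at 1560.2 and 1684 CPM with vehicle and 3157, 2742, 2660.5 and 3123 CPM late (log2 fold change 0.85), and its partner SLC3A2 changed by 0.51. Glycolysis and glucose uptake gave 9 higher and 0 lower of 20 (5 higher and 1 lower without the first 0-h library), with LDHA, lactate dehydrogenase A, at 0.33 and the lactate exporter SLC16A3 at 0.84. Mitochondrial ribosomal proteins were higher for 17 and lower for 0 of 76 (median 0.09), beside 23.9% higher among all genes of the top class by level, and for 5 without the second 0-h library and 11 without the first 4 h library. Cytoplasmic ribosomal proteins gave 1 higher and 0 lower of 84 (0 higher without the second 0-h library, 4 without the first 8 h library, 3 with the GC offset), with a median of 0.02. SRM, the spermidine synthase, rose by 0.42, while SAT1, which starts polyamine breakdown, changed by -0.63.

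Lists of DNA replication and mitosis had medians near 0, while G1 genes had more increases than decreases. Of 40 genes of replication licensing, the fork and nucleotide supply, 1 was higher and 5 were lower, with a median of -0.03, where 12.2% of all tested genes were lower and 13.5% higher. Without the second 0-h library 0 were higher and 1 was lower. The helicase subunit MCM5 stood at 151 and 158 CPM and 138, 136, 132 and 133 CPM (-0.20, adjusted p = 0.00504, and 0.0791 without that library). Mitotic genes gave 2 higher and 1 lower of 30, with a median of -0.04. Their counts moved with the setting, to 0 of either without that library, to 3 higher and 0 lower, with a median of 0.03, without the first, and to 2 higher and 6 lower with the GC offset. G1 cyclins, kinases, E2F factors and MYC gave 5 higher and 2 lower of 16, with a median of 0.12, or 3 and 0 without the second 0-h library and 6 and 0 with the GC offset. Among them CCND2, cyclin D2, rose by 0.78 from 26.4 and 26.6 CPM to 41.2, 45.6, 48.7 and 46.4 CPM. CDK inhibitors and related genes gave 4 lower, such as CCNG2 (-0.72) and CDKN1C (-0.61), and 1 higher of 14, the antiproliferative TOB1 (0.72), with a median of -0.11.

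**Figure D4:**
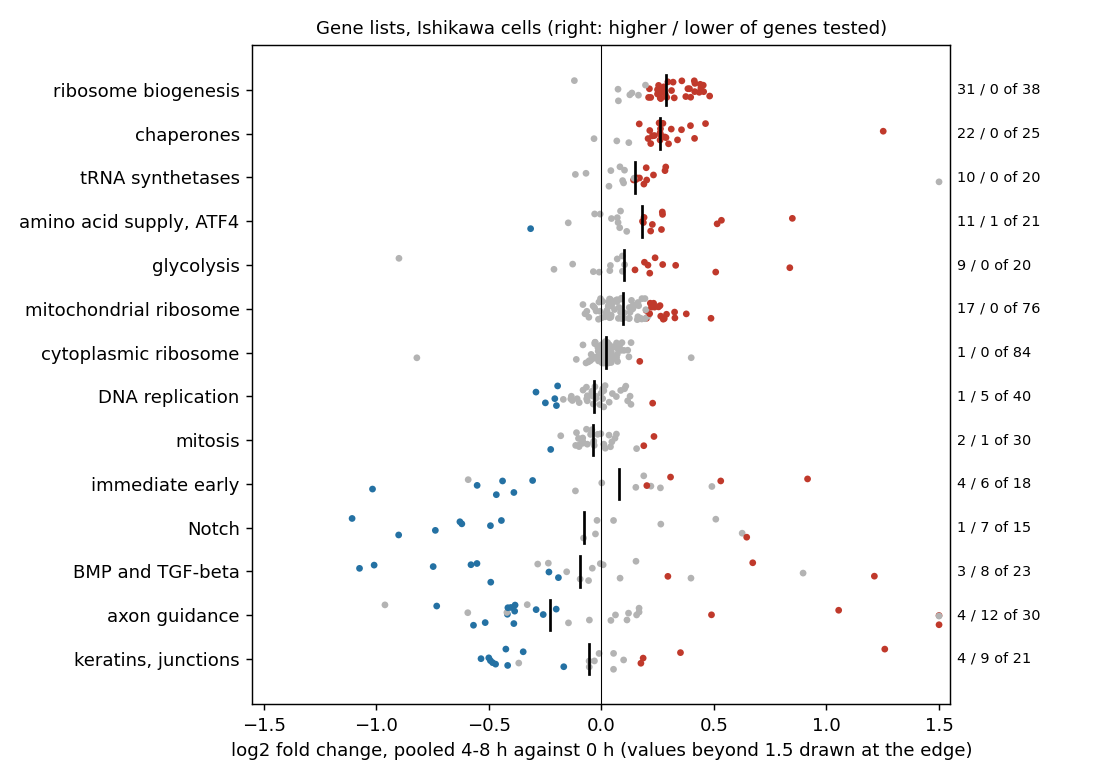
Log2 fold change of pooled 4-8 h against 0 h for each tested member of 14 gene lists, red where higher and blue where lower at an adjusted p under 0.05, grey where not called, values beyond 1.5 at the edge, with a bar at the list median and the counts at the right. Ribosome biogenesis (31 of 38) and chaperones (22 of 25) lie to the right of 0, and Notch, BMP and axon guidance genes spread mostly to the left.

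Of the developmental signalling lists, Notch, BMP and TGF-beta and axon guidance genes held more decreases than increases, and WNT genes did not. WNT ligands and feedback targets gave 4 higher and 4 lower of 24, with a median of -0.14, and 2 and 3 without either 0-h library. Notch receptors, ligands and targets gave 7 lower and 1 higher of 15, against 12.2% lower and 13.5% higher over all genes. Besides JAG1, the receptor NOTCH1 went from 197 and 209 to 151, 140.0, 129 and 156 CPM, the feedback target NRARP changed by -0.90 and the target HES1 by -0.63. The higher member, the target HEY2 (0.65), lost its call without either 0-h library, either 4 h library or the second 8 h library. BMP and TGF-beta genes gave 8 lower and 3 higher of 23. TGFB2, a TGF-beta ligand, went from 59.4 and 55.1 to 25.7, 26.4, 28.6 and 28.0 CPM, and the BMP target ID1 changed by -0.55. SKIL, a corepressor of SMAD factors, rose by 0.67. Without the second 0-h library 5 of this list were lower and 1 was higher, and without the first 6 and 5. Axon guidance genes gave 12 lower and 4 higher of 30, or 10 and 7 with the GC offset. ROBO2, a SLIT receptor, was the largest riser of that list, from 0.413 and 0.172 to 2.13, 1.41, 1.85 and 2.03 CPM, and the semaphorin receptor PLXNB1 the largest called decrease (-0.73, or -0.47 without the second 0-h library, when 7 of the list were lower). Medians of the Notch, BMP and TGF-beta and axon guidance lists were -0.08, -0.09 and -0.23.

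Retinoid genes gave 6 lower, among them the receptor RARG (-0.52), and 2 higher, DHRS3 and RARA, of 18, against 12.2% lower and 13.5% higher over all genes. RXRB, whose gene also lies in the major histocompatibility complex, was lower with 0-h libraries at 9.38 and 4.74 CPM against 5.16, 3.00, 3.67 and 2.81 CPM late, so that the groups overlapped, and lost its call without the first (adjusted p = 0.37). Without the second 0-h library 3 of the list were lower.

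Insulin-like growth factor genes divided, with 2 higher and 4 lower of 12, counts to be read against 13.5% higher and 12.2% lower over all genes, as are those of the BCL2 family. IGF1R, the receptor, rose by 0.85 on the log2 scale, and IGFBP4 by 1.89. IGFBP3 went from 1128 and 1066 to 493, 765, 809 and 522 CPM (-0.76), with the first 4 h and second 8 h library lowest, IGFBP1 changed by -1.67 (not called without the second 0-h library, adjusted p = 0.186) and IGFBP5 by -0.62, and the adaptor IRS2 changed by -0.43. In the BCL2 family, 4 were higher and 4 were lower of 15 (2 and 4 with the first 0-h library left out, 1 and 3 with the second). Beside BMF, the BH3-only gene BBC3 (PUMA) changed by -0.81, while PMAIP1 (NOXA) rose by 0.75.

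Receptors of steroid hormones changed in different directions. ESR1 stood at 247 and 234 CPM with vehicle and 174, 177, 172 and 182 CPM late (-0.45, standard error 0.05, adjusted p = 3.05e-06), every late library below both controls. PGR rose as given above, and the mineralocorticoid receptor NR3C2 changed by -0.65. Immediate-early genes, which react within minutes of a stimulus, gave 6 lower and 4 higher of 18 (12.2% and 13.5% over all genes), or 5 and 5 with the GC offset, and 2 were higher when either 0-h library or the second 8 h library was left out. JUNB, a subunit of the AP-1 factor, stood at 65.6 and 71.1 and 37.1, 31.6, 30.4 and 36.3 CPM, and JUN changed by -0.47, while EGR1 rose by 0.53.

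Epithelial genes shifted as well. Keratins and junction genes gave 9 lower and 4 higher of 21, beside 12.2% and 13.5% of all genes, with KRT18 at -0.35 and the tight junction gene CLDN1 at -0.48, and without the second 0-h library 6 were lower and 1 was higher. SPDEF, an ETS factor of secretory cells, had 6 counts in all at 0 h and 148 late, a ratio of 12.1 with an exact 95% counting interval of 5.43 to 33.5. The secreted mucin genes MUC5B and MUC5AC, neighbours on chromosome 11 that were named after their values were seen, rose by 2.40 and 1.95 from below 1 CPM. ANO1, a calcium-activated chloride channel, rose from 5.78 and 6.03 to 63.9, 37.1, 35.8 and 66.0 CPM, where the pairs of late libraries were far apart. PAX8, a factor of Müllerian duct epithelium, changed by -0.58.

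Markers of the line's label were present. All 12 epithelial markers were tested, and their summed level was 3662 to 3744 CPM with vehicle and 3110 to 3417 CPM late. Of 10 markers of the breast line, TFF1, TFF3, SCGB2A2, PIP and TFAP2B had 0 counts in all 8 libraries, 3 had too few counts to be tested, and 2 were expressed. FOXA1, a pioneer factor of the estrogen receptor, stood at 11.5 and 11.7 CPM with vehicle and 12.2, 12.9, 14.6 and 13.4 CPM late (0.20, adjusted p = 0.121). PRLR, the prolactin receptor, stood at 19.5 and 16.1 and 19.8, 22.7, 23.4 and 23.7 CPM (0.33, adjusted p = 0.0159, or 0.262 without the second 0-h library). The sum of these 10 was 28.6 to 31.4 CPM at 0 h and 31.3 to 38.1 CPM late. The T cell markers CD3D, CD3E and CD2 and the B cell marker MS4A1 were at 0 throughout. Of 10 fibroblast markers 5 were tested, among which COL3A1 (-0.76) and COL1A1 (-0.58) were lower and THY1 (1.68) was higher, and the sum of the 10 was 262 to 291 CPM at 0 h, 226 to 244 CPM at 2 h and 156 to 211 CPM late. The sum of 7 endothelial markers was 8.80 to 9.44 CPM with vehicle and 5.38 to 7.72 CPM late, and that of 10 leukocyte markers 2.87 to 3.66 and 2.33 to 3.05 CPM. The part of other cell types in the results was not tested, and since a library pools many cells, fewer cells of a type and less RNA per cell cannot be told apart.

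Called genes with large changes often had a called neighbour. The nearest tested gene that did not overlap was higher for 33.3% of 186 annotated genes that rose by more than 1, against 14.4% of all 15239 annotated genes. It was lower for 29.9% of the 137 genes that fell by more than 1, against 11.9% of all. Pairs that both rose by more than 1 included ALPP with ALPPL2, IQSEC3 with SLC6A12, KCNJ1 with KCNJ5, IGFBP4 with TNS4 and ESPN with HES2, the last 106 bases apart. Reads that run past a gene's end were not examined.

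Against the 2 h libraries, the late libraries differed for 764 genes (4.84%), 354 higher and 410 lower. Of the 4055 genes called against 0 h, 675 passed this test. Late levels were above both 0 h and 2 h for 292 genes, of which 52 had been below 0 h at 2 h, and below both for 325, of which 60 had been above 0 h at 2 h. They lay between 0 h and 2 h for the others, 31 above 0 h and 27 below it. PGR, at 6.73 and 6.20 CPM at 2 h, was higher late by 1.25 on the log2 scale (adjusted p = 3.17e-05), and SLCO2A1, at 27.6 and 26.1 CPM at 2 h, by 1.51. BMF and CYP1A1 were lower late than at 2 h by -0.88 and -1.07. The other way, TOB1 had 105 and 108 CPM at 2 h and 51.3, 58.1, 60.4 and 51.7 CPM late, against 36.1 and 31.4 CPM at 0 h. For ELF3, an epithelial ETS factor, the values were 228 and 219.8 CPM at 2 h and 120.2, 144, 145 and 114 CPM late, and JAG1 and PLK2 rose from 2 h by 0.37 and 0.48 while still below 0 h. PIM1 (0.04, adjusted p = 0.773) did not pass against 2 h. Of the 38 ribosome biogenesis genes 15 were higher late than at 2 h, and of the 25 chaperones 9 were higher and 1, BAG3 (-0.27), was lower. The count rested on single libraries, with 187 genes called if the first 2 h library was left out, 131 if the second was, 491 if the first 4 h library was, and 438 if the second 8 h library was.

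The late response differed between Ishikawa and T-47D cells for 1531 of 17090 genes (8.96%; interaction of cell line and late group in edgeR). Values below are T-47D minus Ishikawa. The difference was above 0 for 840 genes and below 0 for 691, but with RLE scaling 694 were above and 892 below, and with DESeq2 826 and 1152, so the balance of signs depended on scaling. Without the second Ishikawa 0-h library 981 genes differed, and without the first T-47D 0-h library 939. Of the genes called in Ishikawa cells, 912 differed, of which 208 were called in T-47D cells in the same direction and 195 in the opposite one. The log2 fold change of DHRS3 was -0.44 in T-47D cells, where it was not called, against 4.07 in Ishikawa cells (difference -4.50, standard error 0.20, adjusted p = 3.32e-12). For MMP17 the values were -0.15 and 3.69, for SLCO2A1 -1.08 and 2.12, and for ROBO2 -0.49 and 2.66. RBM24 rose by 2.10 in T-47D cells against 5.39 in Ishikawa cells (difference -3.28, adjusted p = 0.000115), the Ishikawa value resting on 6 control counts.

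Responses larger in T-47D cells were led by MYC, which rose by 2.61 there against 0.48 in Ishikawa cells (difference 2.14, adjusted p = 1.14e-10). MPPED2, a metallophosphoesterase, changed by 2.38 against 0.32, SLC47A1, a multidrug exporter, by 2.38 against 0.36, RASGRP1, a RAS exchange factor, by 3.43 against 1.51, and GJA1, connexin 43, by 2.15 against 0.25. Without the second Ishikawa 0-h library the Ishikawa calls of MPPED2 (adjusted p = 0.119) and GJA1 (0.275) were lost, and GJA1 was also lost without the second 8 h library (0.058). Among estrogen targets, 20 of 27 members differed. STC2, a secreted stanniocalcin, gave 2.15 in T-47D cells and 0.27 in Ishikawa cells, whereas CA12 gave 0.69 and 2.90, and PGR 1.02 and 3.71. ESR1 changed by 0.24 in T-47D cells (difference 0.70). In the fit of T-47D cells alone, 3849 of the 15594 genes tested were called late against 0 h, higher or lower. The T-47D list counts that follow are to be read beside this. Of the 40 replication genes 19 differed, and 23 were higher and 0 lower in T-47D cells, against 1 and 5 in Ishikawa cells. Ribosome biogenesis genes were higher for 36 and lower for 1 of 38 in T-47D cells and differed for 10, and 3 of 25 chaperones differed, against 8.96% of all genes.

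**Figure D5:**
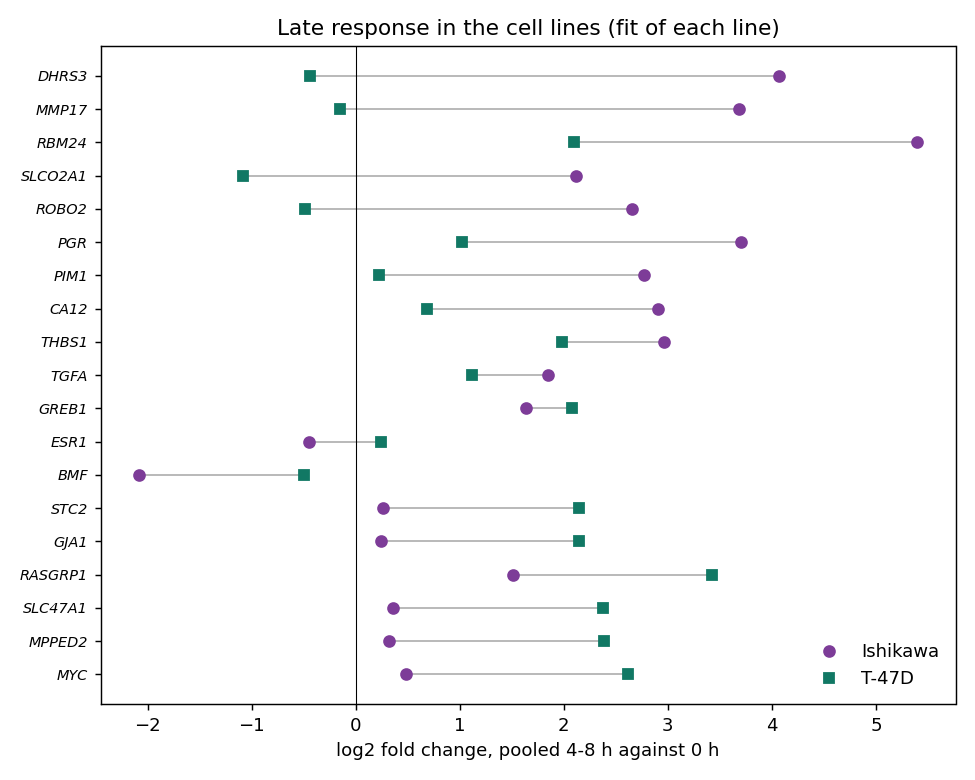
Log2 fold change of pooled 4-8 h against 0 h in Ishikawa cells (circles) and T-47D cells (squares) for 19 genes, each value from the fit of its own line. DHRS3 (4.07 against -0.44) and MMP17 (3.69 against -0.15) changed more in Ishikawa cells, and MYC (0.48 against 2.61) more in T-47D cells.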

How the data were processed

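RNA was sequenced from 16 samples, 2 replicates of 2 cell lines at 4 time points, as poly(A)-selected directional libraries. Per the labels and the study's methods, reads were aligned to hg19 with HISAT2, handled with SAMtools and counted per gene with featureCounts on UCSC Known Genes, and the authors tested genes with DESeq2. Versions and the strand setting are not given in the sources used here. The deposited values are raw read counts per gene, 1 table per line. Between 71.9% and 73.9% of counts from 1 to 10 in the Ishikawa libraries were even, and counts divided by 2 were tried as an alternative.

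Counts were filtered with filterByExpr, scaled by TMM and tested with edgeR 4.0.16 (R 4.3.3; glmQLFit, glmQLFTest) with groups 0 h, 2 h and late over the 8 Ishikawa libraries, and with cell line by group over all 16 for the difference between lines. T-47D libraries were also fitted alone with the same groups, for the late change in that line. P-values were adjusted by Benjamini-Hochberg. Groups came from the sample labels. No pair of libraries held identical values, and replicate numbers did not pair the samples. The test was tested on simulated data, counts drawn from the real means with known fold changes. Alternatives were DESeq2 1.42.0, RLE size factors, other filters and thresholds, each late label alone, each library left out and a replicate block, with a GC offset and a crossed block added after seeing the data.

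Genes named were the 10 highest and 10 lowest log2 fold changes among called genes with 50 or more counts on average and late libraries beyond both 0-h libraries, the 8 and 8 at a mean of at least 50 CPM, members of gene lists, and the 5 and 5 largest differences between lines with a mean of at least 50 counts in each. ELF3 is a list member, while genes named only as neighbours (ESPN, KCNJ1, KCNJ5, SLC6A12, TNS4, MUC5AC, MUC5B) or for a promoter motif (ZNF669, USHBP1) were chosen after their values were seen. Some genes that meet these rules are not reported here. The comparison and the lists were chosen with earlier results of these data known. Symbols of 90.5% of 26364 genes matched an annotation, and promoters (250 bases before to 50 after the start) came from RefSeq GRCh38.p14, placed on GRCh37 by exact match.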

Additional observations from a re-analysis of the deposited data

Results flagged for a closer look

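Of the 119 genes described by name, 5 had 1 of the 4 late libraries far from the other 3, by Dixon's test within the group, and chance gives such a result in about 1 of 20 groups. ADRA1B stood at 1.40 CPM in the second 4 h library, against 0.845 to 0.917 CPM in the others. RGL2 stood at 3.74 CPM in the second 8 h library, against 2.03 to 2.31 CPM. THBS1 stood at 715 CPM in the second 8 h library, against 657 to 663 CPM. GNL3 stood at 159 CPM in the first 4 h library, against 148 to 149 CPM. KCNJ1 stood at 1.09 CPM in the second 4 h library, against 0.822 to 0.843 CPM. In each of these genes the library apart from the rest lay on the same side of both 0-h libraries as the others. For ADRA1B, RGL2 and THBS1 this was a condition of being named.

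For 62 of the 119 genes the late response differed between the lines at an adjusted p under 0.05 (interaction test in edgeR). Of all 17090 genes in that test, 8.96% differed. The 5 and 5 genes named for the largest differences between lines had to pass it. Many others were named for large changes in Ishikawa cells, which enter the difference, so 62 of 119 cannot be read as a share of genes at large. Differences are given as the log2 response in T-47D cells minus that in Ishikawa cells. The most negative differences, below -2, were those of DHRS3 -4.50, SPDEF -4.04, MMP17 -3.83, RBM24 -3.28, SLCO2A1 -3.19, ROBO2 -3.14, ANO1 -3.13, PGR -2.67, PIM1 -2.55, SLC6A12 -2.48, CKB -2.40, HES2 -2.33, CA12 -2.21, TNS4 -2.06 and WISP2 -2.01. Smaller negative differences were those of ESPN -1.38, KAZN -1.37, ELF3 -1.30, SLC16A3 -1.18, IGFBP4 -1.14, THBS1 -0.98, SKIL -0.91, BAG3 -0.85, PEG10 -0.74, TGFA -0.73, IGF1R -0.48, NRIP1 -0.44 and FOXA1 -0.31. Differences above 1 were those of MYC 2.14, MPPED2 2.06, SLC47A1 2.02, RASGRP1 1.92, GJA1 1.90, STC2 1.89, LMO3 1.60, BMF 1.582, HEY2 1.28 and IRS2 1.09. Smaller positive differences were those of ADCY9 0.95, NRARP 0.93, IGFBP5 0.85, PDGFB 0.80, XBP1 0.76, PRIMA1 0.71, JAG1 0.70, ESR1 0.70, KRT18 0.69, TGFB2 0.62, PLK2 0.59, CYP1A1 0.58, NOTCH1 0.57, MCM5 0.57, SAT1 0.50, GREB1 0.45, COL1A1 0.40, DDX21 0.33, WDR43 0.28, POLR1B 0.25, SIAH2 0.24 and DKC1 0.22. The fitted differences of ALPI (-10.12) and LOC100129940 (5.93) rested on nearly no T-47D counts, with 2 counts in all at 0 h and 0 late for ALPI and 0 and 12 for LOC100129940. That of LMO3 rested on few T-47D counts, 17 in all at 0 h and 48 late. The 62 genes include some whose response was in the same direction in both lines, such as THBS1 and TGFA.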

How the results depend on the processing

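The count of genes called between late and 0-h libraries (4055, with 2132 higher and 1923 lower) stayed within 1.5 times under DESeq2 (4073), RLE size factors (4040), no filter on low counts (4371), at least 10 counts in every library (4015), counts divided by 2 (4083), the 6 libraries alone (3454), the 8 h libraries alone (3488) and an adjusted p under 0.1 (5322). It was 2178 (1139 higher, 1039 lower) at an adjusted p under 0.01 and 2251 (1209 higher, 1042 lower) with only the 4 h libraries as the late group, where the latter has fewer samples, and whether the 4 h and 8 h labels were exchanged between libraries before deposit was not tested. Leaving out 1 library gave 1636 to 4305 genes, 879 to 2402 higher and 757 to 1941 lower, the lowest counts without the second 0-h library and the cause was not tested. With the replicate block, 3861 genes were called against 0 h, 718 against 2 h and 1404 between the lines, and 2 between 8 h and 4 h labels (2 without the block), so the block moved no count by over 1.5 times. Deviations from the group means correlated at -0.115 to 0.0533 between libraries of the same number, so the numbers did not pair the samples. Exchanging the numbers of the 8 h libraries, which was chosen after seeing the data, gave 4200 genes against 0 h, 960 against 2 h and 2 between 8 h and 4 h labels. The test against 2 h (764 genes) gave 1356 with no filter, 295 at an adjusted p under 0.01, 1264 at 0.1, 377 with the 4 h libraries alone, 353 with the 8 h libraries alone, 1285 with the GC offset, which was chosen after seeing the data, and 131 to 983 with 1 library left out. The test between the lines (1531 genes) gave 807 at an adjusted p under 0.01, 1978 with DESeq2, 1993 with the GC offset and 939 to 1723 with 1 library left out. Over 119 genes described by name and 21 alternatives, 2486 values could be computed. Of these, 2449 kept their direction and their side of the threshold, 32 lost their call, 5 gained one and 0 turned. In the comparison as reported, 114 of the 119 genes were called, and many were named for large changes. This stability was therefore partly set by their choice and does not describe all genes. In the comparison as reported, with 2 libraries at 0 h, the smallest change called was 0.12 on the log2 scale.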
